A study of Homo sapiens with 4 samples.

Results

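The SOX factors are transcription factors that share a DNA-binding HMG box, and 9 of them other than SOX2 were examined here: SOX3, SOX4, SOX5, SOX8, SOX11, SOX12, SOX13, SOX15 and SOX21. They were taken by gene symbol from a table of 15942 genes, and all 9 were in it and passed the filter on low counts, which kept 15557 genes. The cells were H9, an established human embryonic stem cell line grown without feeders on Matrigel in E8-supplemented medium. One group was treated with a small interfering RNA (siRNA) against UPF1, the helicase that nonsense-mediated RNA decay (NMD) depends on. The control group was treated with an siRNA against luciferase (siLuc), which has no target in human cells. There were 2 libraries per group. The 2 control columns share 1 name in the table and are told apart here as control a and control b. The treatment text shared by all libraries names an siRNA against UPF3A and an actinomycin D time course, gives no time for any library and does not mention UPF1. No label says whether replicate libraries were separate cultures. The p-values therefore rest on the spread between libraries alone, and that spread may be technical. In the main test it was pooled over genes by a fitted trend, so a p-value does not follow the replicates of its own gene.

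A SOX protein binds the minor groove through its HMG box and bends the DNA, and it commonly acts beside a partner factor such as a POU or PAX protein. The family is divided into lettered groups by the sequence of the box. SOXB1 proteins are activators that hold pluripotent and neural progenitor cells undifferentiated, and SOXB2 proteins are repressors that oppose them in the neural tube. SOXC proteins act in neuronal and mesenchymal precursors, SOXD proteins lack a domain for activation of their own, and SOXE proteins act in neural crest, glia and gonad. SOX15 is the only mammalian member of group G. NMD removes transcripts whose translation stops ahead of an exon junction, so a gene without introns offers no such junction.

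Counts summed to 10058515 and 11200973 in siUPF1 replicates 1 and 2, and to 8887239 and 9937231 in controls a and b. The siRNA target held 608 and 878 counts in the siUPF1 libraries, against 1936 and 2053 in the controls, a log2 fold change of -1.60 (SE 0.07). All 10 markers of pluripotent stem cells on the list used were in the table, and 6 of them fell, where 9.14% of all genes tested did (3.05% in DESeq2). The count was 3 in DESeq2, 9 without siUPF1 replicate 1, 2 without siUPF1 replicate 2, 4 without control b and, when control a was left out, 0 in edgeR's test, or 2 at an unadjusted p of 0.05. Their summed level was 1724 to 1864 CPM (counts scaled to a total of 1000000) in siUPF1 libraries and 1995 to 2141 CPM in controls. Summed endoderm markers stood at 12.1 to 16.1 CPM in siUPF1 libraries and 12.1 to 13.1 CPM in controls, from 3 of 6 genes in the table, SOX17, GATA4 and GATA6 not being listed. Neural markers (5 of 6 listed, NEUROD1 not) summed to 34.9 to 38.2 CPM in siUPF1 libraries and 33.3 to 36.4 CPM in controls, and trophoblast or amnion markers (4 of 6 listed, GATA2 and CDX2 not) to 22.2 to 23.6 CPM in siUPF1 libraries and 16.4 to 17.2 CPM in controls. Mesoderm markers (3 of 6 listed, T, MESP1 and HAND1 not) summed to 174 to 176 CPM in siUPF1 libraries and 192 to 199 CPM in controls. Fibroblast markers (5 of 7 listed, LUM and DCN not) summed to 553 to 575 CPM in siUPF1 libraries and 541 to 557 CPM in controls. The part of other cell types in the SOX results was not tested, and in bulk RNA fewer cells with a transcript and less of it per cell cannot be told apart.

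After UPF1 knockdown 3 of the 9 SOX genes rose, 2 fell and 4 did not pass (edgeR quasi-likelihood test, Benjamini-Hochberg adjusted p of 0.05 over all genes tested). SOX3, SOX15 and SOX21 rose, by 1.72-fold to 2.10-fold, and SOX4 and SOX12 fell, to 83.0% and 76.0% of the mean control level. Over all genes tested, 16.8% rose and 9.14% fell, against 33.3% and 22.2% of the 9 SOX genes. The siUPF1 libraries both lay above both controls for 3 SOX genes, against a background of 32.3% of genes tested, and below both for 4, against 31.1%. The median log2 fold change was 0.03 for the 9 genes and -0.01 for all genes tested. Per transcript length, the risers SOX15 and SOX21 had lower levels than the fallers SOX4 and SOX12. The riser SOX3 lay below SOX12 in controls and overlapped it in siUPF1 libraries.

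**Figure D1:**
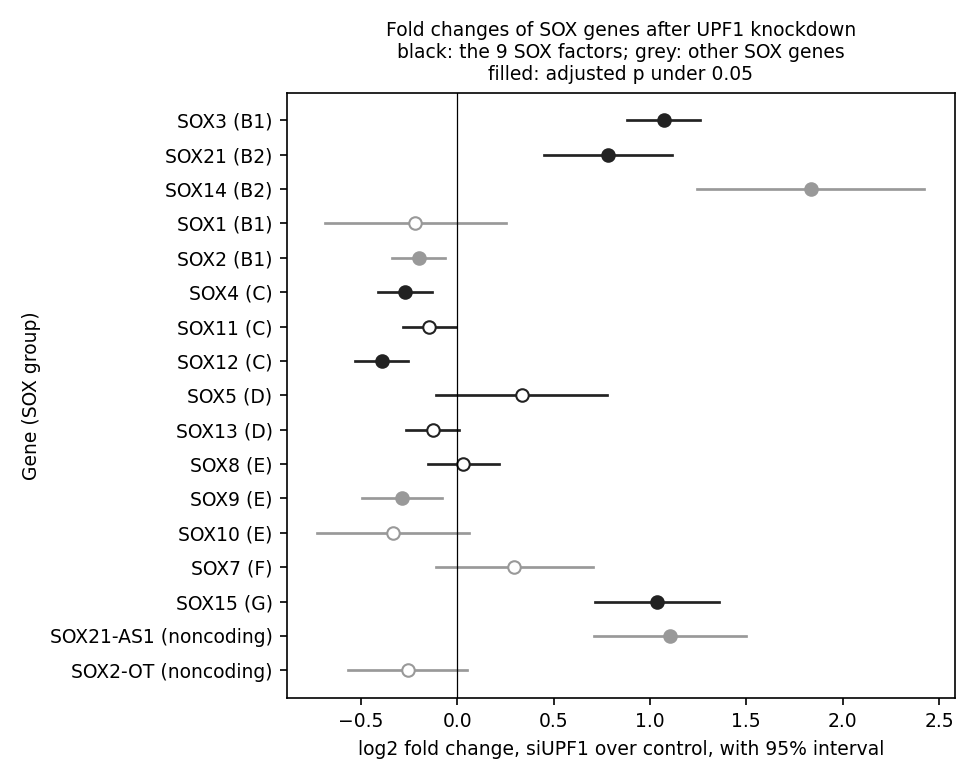
The horizontal axis gives the log2 fold change of siUPF1 over control with its 95% interval, for the 9 SOX factors (black), the other SOX genes in the table and 2 noncoding neighbours (grey). Filled points passed an adjusted p of 0.05 in edgeR's test; SOX3, SOX21 and SOX15 lie right of 0, and SOX4 and SOX12 lie left of 0 by less than 0.4.

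SOX3 and SOX21 are the group B genes among the 9. SOX3, an X-linked SOXB1 activator of neural progenitors that is close in sequence to SOX2, had 580 and 624 counts in siUPF1 replicates 1 and 2, against 242 and 267 in controls a and b. It averaged 56.8 ± 1.72 CPM in siUPF1 libraries and 27.0 ± 0.525 CPM in controls (SD, n = 2 each). Both siUPF1 libraries held about the same level, far above both controls. The log2 fold change was 1.07 (SE 0.10, 95% interval 0.88 to 1.26, adjusted p = 2.79e-26, edgeR), a 2.10-fold rise. Of all genes tested, 2.15% had a larger log2 fold change. The adjusted p stayed between 2.3e-26 and 6.84e-05 over 11 alternatives.

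SOX21, the SOXB2 repressor that promotes neuronal differentiation in the chick neural tube, had 136 and 184 counts in siUPF1 replicates 1 and 2, against 76 and 89 in controls a and b. Its level was 15.0 ± 1.97 CPM in siUPF1 libraries and 8.74 ± 0.198 CPM in controls (SD, n = 2 each). The groups did not overlap, and replicate 2 was the higher of the siUPF1 pair. The log2 fold change was 0.78 (SE 0.17, 95% interval 0.45 to 1.11, adjusted p = 4.88e-05, edgeR), a 1.72-fold rise, with a range of 3.47e-06 to 0.0194 for the adjusted p over 11 alternatives. The noncoding gene SOX21-AS1 lies on the opposite strand, 317 nt from SOX21 in the GENCODE annotation. It held 109 and 123 counts in siUPF1 libraries, against 41 and 55 in controls, a rise with a log2 fold change of 1.10 (SE 0.20, adjusted p = 7.78e-07, edgeR). The 2 gene models do not overlap, but since the use of strand in counting is not given, reads that run past either model cannot be assigned with certainty.

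The 250 bases upstream of the annotated starts of SOX3 and SOX21 are shown because both genes rose and because SOX21 shares its start region with a noncoding gene that also rose. They are from RefSeq on GRCh38.p14, 5′ to 3′ on the gene's strand, at chrX:140505070-140505319 (minus strand) and chr13:94712546-94712795 (minus strand). Capitals mark matches, on either strand, to the CCAAT box (CCAAT), the TATA box (TATAAA), either of 2 forms of the SOX core (AACAAT and the form ACAAAG), the octamer bound by POU factors (ATGCAAAT) and the cAMP response element (TGACGTCA).
SOX3: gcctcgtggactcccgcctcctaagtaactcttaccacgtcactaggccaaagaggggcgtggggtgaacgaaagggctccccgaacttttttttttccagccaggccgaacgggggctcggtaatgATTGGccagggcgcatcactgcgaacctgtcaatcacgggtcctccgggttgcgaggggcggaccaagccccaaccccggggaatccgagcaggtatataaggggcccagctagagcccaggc
SOX21: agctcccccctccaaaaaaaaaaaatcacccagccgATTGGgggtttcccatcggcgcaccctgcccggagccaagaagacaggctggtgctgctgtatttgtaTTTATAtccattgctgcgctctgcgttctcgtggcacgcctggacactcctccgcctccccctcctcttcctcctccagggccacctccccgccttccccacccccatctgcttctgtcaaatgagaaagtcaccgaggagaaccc
SOX3 held 1 exact match, to the CCAAT box on the reverse strand at -123 to -119 counted from the start. Only exact letters were searched, so the stretch tatataa near the end of the SOX3 window, close to the start, is not marked. SOX21 held the letters of a CCAAT box at -214 to -210 and of a TATA box at -146 to -141, both on the reverse strand. Whether any of these stretches acts in transcription was not tested. A CCAAT box was found in 32.0% of 35116 promoter windows of this length and a TATA box in 10.7%. Neither window held the SOX core AACAAT, found in 8.98% of all windows, or its form ACAAAG, found in 13.7%. GC content was 61.6% for SOX3 and 58.8% for SOX21, against a median of 58.0% over all windows. The motifs were chosen after the values were seen.

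Set beside SOX2 per transcript length, SOX3 stood higher after knockdown. The RPKM values used here are TMM-scaled CPM per kilobase of transcript. The RPKM of SOX3 was 51.7% and 49.8% of that of SOX2 in siUPF1 replicates 1 and 2, against 20.3% and 21.8% in controls a and b. SOX2 itself had 54.1 ± 0.232 RPKM in siUPF1 libraries and 62.2 ± 4.36 RPKM in controls (SD, n = 2 each). The other SOXB genes in the table did not move together. SOX14, the second SOXB2 gene, rose, with 52 and 57 counts in siUPF1 libraries, against 14 and 13 in controls, a log2 fold change of 1.83 (SE 0.30, adjusted p = 2.8e-08, edgeR). SOX1, the third SOXB1 gene, had 43 and 48 counts in siUPF1 libraries, against 44 and 50 in controls, at -0.22 (SE 0.24, 95% interval -0.69 to 0.25). The noncoding transcript SOX2-OT, which spans SOX2, stood at -0.26 (SE 0.16, adjusted p = 0.231, edgeR).

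SOX15 had 180 and 203 counts in siUPF1 replicates 1 and 2, against 70 and 96 in controls a and b. In mouse it is expressed in embryonic stem cells and muscle precursors. It averaged 18.0 ± 0.0538 CPM in siUPF1 libraries and 8.75 ± 1.17 CPM in controls (SD, n = 2 each). The siUPF1 libraries were alike and the controls spread more, without reaching them. The log2 fold change was 1.04 (SE 0.16, 95% interval 0.72 to 1.36, adjusted p = 5.82e-09, edgeR), a 2.05-fold rise, and its adjusted p stayed between 5.39e-09 and 0.00122 over 11 alternatives. SOX15 overlaps MPDU1 on the opposite strand in GENCODE. MPDU1 had 729 and 751 counts in siUPF1 libraries, against 639 and 705 in controls, at -0.03 (SE 0.08, 95% interval -0.18 to 0.13), so it did not show the rise of SOX15. FXR2 lies 1060 nt from SOX15 on the same strand. It had 853 and 977 counts in siUPF1 libraries, against 714 and 743 in controls. Its change was 0.16 (SE 0.08, adjusted p = 0.116, edgeR). How many of the SOX15 reads could come from MPDU1 or FXR2 was not tested.

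**Figure D2:**
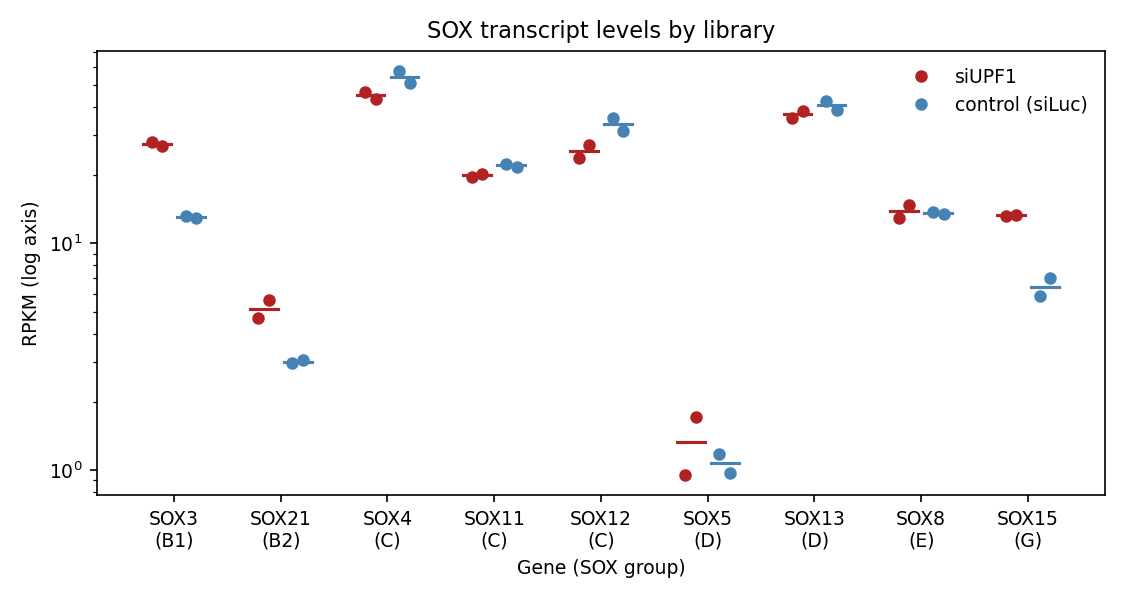
Each point is the RPKM of 1 library on a log axis, siUPF1 (red) left of control (blue), with a line at each group's mean, for the 9 genes in order of SOX group. SOX3, SOX21 and SOX15 lie apart between the groups, SOX4 and SOX12 lie slightly lower in siUPF1 libraries, and the siUPF1 libraries of SOX5 lie on both sides of the controls.

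The SOXC genes SOX4, SOX11 and SOX12 encode activators found together in precursor cells. By mean RPKM they lay above 92.8%, 57.6% and 73.1% of all genes tested, in that order. SOX12 had 1104 and 1420 counts in siUPF1 replicates 1 and 2, against 1470 and 1458 in controls a and b. That is 118 ± 11.3 CPM in siUPF1 libraries and 156 ± 14.7 CPM in controls (SD, n = 2 each). Replicate 1 was the lowest library, and the groups did not overlap after scaling. The log2 fold change of SOX12 was -0.39 (SE 0.07, 95% interval -0.53 to -0.25, adjusted p = 4.57e-07, edgeR), and it passed in all 11 alternatives, with a highest adjusted p of 0.0287 without control a. NRSN2-AS1 overlaps SOX12 on the opposite strand. It had 66 and 90 counts in siUPF1 libraries, against 83 and 105 in controls, and stood at -0.44 (SE 0.19, adjusted p = 0.0698, edgeR).

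SOX4, the SOXC gene with the highest level, had 2262 and 2369 counts in siUPF1 replicates 1 and 2, against 2475 and 2477 in controls a and b. It averaged 219 ± 10.8 CPM in siUPF1 libraries and 264 ± 23.3 CPM in controls (SD, n = 2 each). Control a was the highest library, and the groups did not overlap. The log2 fold change was -0.27 (SE 0.07, 95% interval -0.41 to -0.13, adjusted p = 0.00131, edgeR). The call rested on control a, without which the change was -0.18 and the adjusted p 0.276, the top of a range over 11 alternatives whose bottom was 0.000458. SOX4 overlaps an antisense gene in GENCODE, AL512380.2, that is not among the symbols counted here.

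SOX11 had 1708 and 1982 counts in siUPF1 replicates 1 and 2, against 1727 and 1891 in controls a and b. It averaged 174 ± 4.02 CPM in siUPF1 libraries and 192 ± 4.76 CPM in controls (SD, n = 2 each). Both siUPF1 libraries were lower after scaling, by a small step. The change of -0.14 (SE 0.07, 95% interval -0.28 to -0.01) did not pass (adjusted p = 0.12, edgeR). It stood at -0.20 with an adjusted p of 0.00949 when each library's trend on read density was removed, within a range that ended at 0.525.

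The upstream 250 bases of SOX12 and SOX4 are shown because these are the 2 members that fell. They are from RefSeq on GRCh38.p14, at chr20:325302-325551 and chr6:21593501-21593750, both on the plus strand, with capitals as above.
SOX12: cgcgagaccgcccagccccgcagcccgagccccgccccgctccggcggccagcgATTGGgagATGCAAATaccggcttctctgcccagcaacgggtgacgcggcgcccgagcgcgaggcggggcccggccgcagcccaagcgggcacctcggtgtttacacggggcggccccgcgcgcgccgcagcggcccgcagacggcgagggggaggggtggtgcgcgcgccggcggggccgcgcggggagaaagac
SOX4: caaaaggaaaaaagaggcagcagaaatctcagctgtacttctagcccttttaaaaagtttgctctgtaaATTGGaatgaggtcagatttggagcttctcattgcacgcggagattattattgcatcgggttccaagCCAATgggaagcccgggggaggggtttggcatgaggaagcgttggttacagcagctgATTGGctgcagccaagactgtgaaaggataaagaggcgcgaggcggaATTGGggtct
SOX12 held a CCAAT box on the reverse strand at -196 to -192 and an octamer, ATGCAAAT, at -188 to -181. An octamer was found in 1.63% of all windows. SOX4 held 4 CCAAT boxes, on the reverse strand at -181 to -177, -57 to -53 and -10 to -6 and on the forward strand at -114 to -110. GC content was 79.2% for SOX12 and 48.8% for SOX4. Of the 9 genes, 6 had a promoter sequence in the table used. A CCAAT box was found in the 4 windows shown and not in those of SOX5 and SOX13, beside 32.0% of all windows. SOX8, SOX11 and SOX15, which rose, had no sequence. The 4 windows were shown because of their calls, and a link of the motif to the calls was not tested. SOX5 was the 1 member with the SOX core AACAAT.

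The SOXD and SOXE genes among the members did not pass. SOX13, a SOXD gene known in the mouse for a role in gamma-delta T cells, had 1455 and 1750 counts in siUPF1 replicates 1 and 2, against 1518 and 1581 in controls a and b. Its change was -0.13 (SE 0.07, 95% interval -0.26 to 0.01, adjusted p = 0.18, edgeR). Both siUPF1 libraries were lower than both controls after scaling, at 151 ± 7.31 CPM in siUPF1 libraries and 165 ± 9.91 CPM in controls (SD, n = 2 each). SOX8, a SOXE gene that acts beside SOX9 and SOX10 in neural crest and gonad, had 392 and 504 counts in siUPF1 libraries, against 368 and 409 in controls. The siUPF1 libraries of SOX8 lay on both sides of the controls, with a change of 0.03 (SE 0.09, 95% interval -0.15 to 0.22, adjusted p = 0.832, edgeR).

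SOX5, the SOXD gene that acts with SOX6 in cartilage formation, was the least abundant of the 9. It had 43 and 87 counts in siUPF1 replicates 1 and 2, against 47 and 44 in controls a and b. Replicate 2 alone was high, and replicate 1 lay below both controls after scaling. The log2 fold change of 0.34 (SE 0.23, 95% interval -0.11 to 0.78) did not pass (adjusted p = 0.285, edgeR). It was 0.68 with an adjusted p of 0.0182 without siUPF1 replicate 1, and -0.17 with an adjusted p of 0.735 without siUPF1 replicate 2, so neither a rise nor a fall could be told at this depth. SOX5 has 5 RefSeq transcripts in the table, the other 8 genes 1 each, and the counts do not separate them.

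In order of RPKM, the levels in siUPF1 libraries were 45.0 for SOX4, 37.1 for SOX13, 27.5 for SOX3, 25.5 for SOX12, 19.99 for SOX11, 13.8 for SOX8, 13.3 for SOX15, 5.16 for SOX21 and 1.33 for SOX5. In controls the order was SOX4 at 54.2, SOX13 at 40.6, SOX12 at 33.6, SOX11 at 22.1, SOX8 at 13.6, SOX3 at 13.1, SOX15 at 6.43, SOX21 at 3.004 and SOX5 at 1.07 RPKM. SOX3 thus had rank 3 in siUPF1 libraries and rank 6 in controls. The library values of neighbours in the order overlapped for SOX3 and SOX12 and for SOX8 and SOX15 in siUPF1 libraries, and for no pair of neighbours in controls. The highest level was 33.8 times the lowest in siUPF1 libraries and 50.6 times in controls.

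The summed RPKM of the 9 genes hardly differed, while its make-up did. The sum was 186 and 192 RPKM in siUPF1 replicates 1 and 2, against 195 and 180 RPKM in controls a and b. SOX3 made up 15.1% and 14.0% of it in siUPF1 replicates 1 and 2, against 6.79% and 7.15% in controls a and b. SOX15 made up 7.13% and 6.94% in siUPF1 libraries, against 2.99% and 3.91% in controls. SOX4, SOX11, SOX12 and SOX13 together took 67.8% and 67.5% in siUPF1 libraries, against 81.1% and 79.2% in controls. These shares follow from the levels already given and carry no test of their own.

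**Figure D3:**
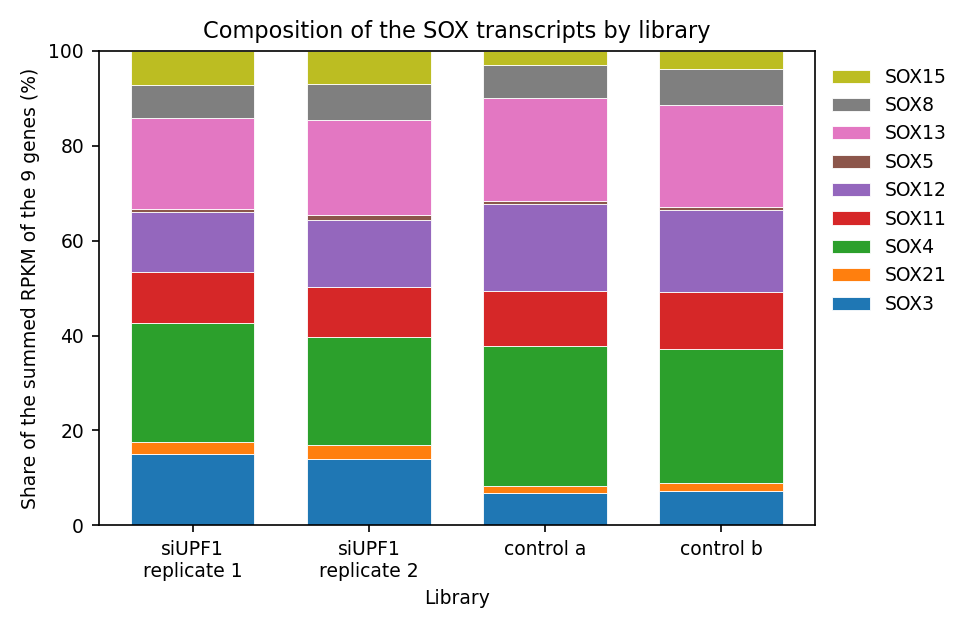
Each bar is 1 library, siUPF1 left of control, and its colours give the percent of the summed RPKM of the 9 genes taken by each gene. SOX3 (lowest segment) and SOX15 (highest segment) are wider in both siUPF1 libraries, SOX3 with 14.0% to 15.1% against 6.79% to 7.15% in controls.

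Over all genes tested, calls varied with level. When the genes were divided into 4 equal classes by mean RPKM, the highest class (over 30.9 RPKM) held SOX4 and SOX13, and in it 6.17% rose and 10.2% fell, with a median log2 fold change of -0.07. In the next class (17.1 to 30.9 RPKM), which holds SOX3, SOX11 and SOX12, 17.5% rose and 7.53% fell, with a median of 0.01. In the class from 6.12 to 17.1 RPKM, which holds SOX8 and SOX15, 23.8% rose and 8.85% fell, and in the lowest class, which holds SOX21 and SOX5, 19.8% rose and 10.03% fell. The table has a ceiling: no gene averaged more than 1.12 reads per transcript base or 744.8 CPM, and the highest mean level was 112 RPKM. ACTB, the cytoplasmic actin gene, had 1728 and 1722 counts in siUPF1 replicates 1 and 2, against 1698 and 1881 in controls a and b, a log2 fold change of -0.22 (SE 0.07). GAPDH, a glycolysis gene, had 1237 and 1211 counts in siUPF1 libraries, against 1208 and 1386 in controls, a log2 fold change of -0.25 (SE 0.07). Both passed (adjusted p = 0.0103 and 0.00298, edgeR), and both were chosen after their values were seen. SOX4, at -0.27, had a log2 fold change of the same size as those of these genes. The part of this ceiling in the levels, ratios and shares of SOX2 and SOX4 was not tested. Reads per transcript base, averaged over libraries, were 0.493 for SOX4, 0.294 for SOX12, 0.207 for SOX3, 0.101 for SOX15 and 0.0417 for SOX21. With the trend on this density removed, SOX3 stood at 1.02, SOX15 at 0.94, SOX21 at 0.67, SOX12 at -0.41 and SOX4 at -0.20, all past the threshold.

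**Figure D4:**
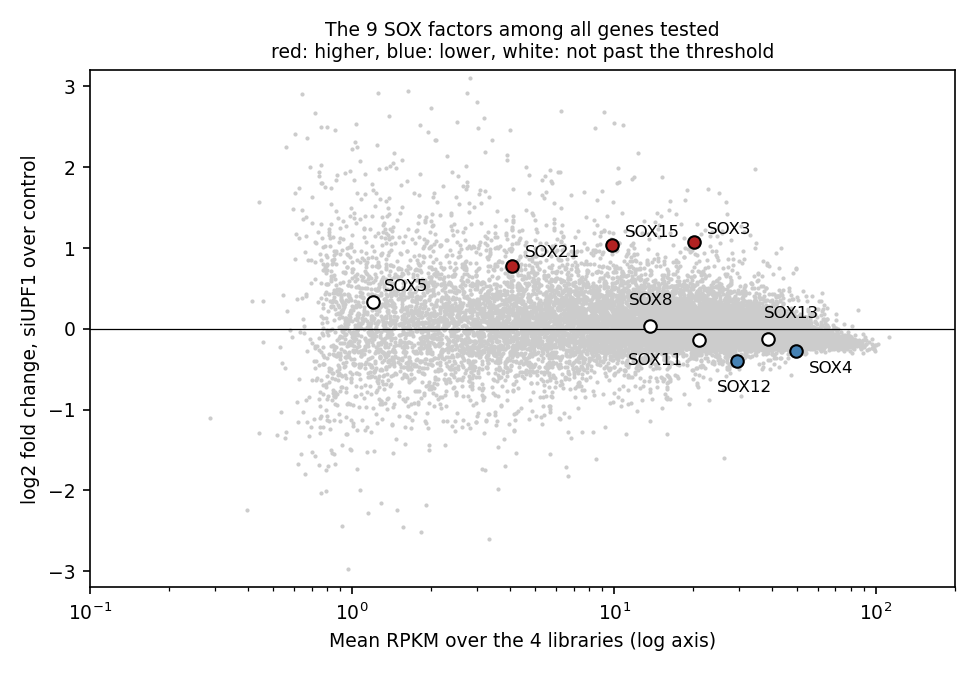
The horizontal axis gives the mean RPKM over the 4 libraries (log axis) and the vertical axis the log2 fold change of siUPF1 over control, with each gene tested as a grey point and 5 genes outside the axes. SOX3, SOX15 and SOX21 (red) lie above the dense part of the cloud, SOX12 and SOX4 (blue) lie below 0 at higher levels, where the cloud itself narrows and ends near 112 RPKM, and the 4 genes that did not pass (white) lie closer to 0.

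The 9 genes differ in whether they hold introns. The RefSeq transcripts of SOX3, SOX21, SOX4, SOX11 and SOX12 have 1 exon in GENCODE, while that of SOX15 has 2, that of SOX8 3 and that of SOX13 14, and those of SOX5 have 7 to 17. Of the 5 single-exon members, 2 rose and 2 fell, and of the 4 with introns, 1 rose and 0 fell (0 fell at an unadjusted p under 0.05 in edgeR, and DESeq2 called 0). Without siUPF1 replicate 1, 2 of these 4 rose, SOX5 being the added one. Among 400 coding single-exon genes tested, 9.75% rose and 17.8% fell, against 16.8% and 9.55% of 13326 coding genes with introns. The median log2 fold change was -0.12 for single-exon genes and -0.01 for genes with introns. SOX3 and SOX21 thus rose in a class in which fewer genes rose, and SOX4 and SOX12 fell in a class in which more genes fell.

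None of the 9 has a matched transcript whose stop codon lies over 50 nt ahead of the last exon junction, a feature held by 5.05% of 13726 coding genes tested. GENCODE lists a transcript of the NMD class for SOX5 and SOX13, 1 each, and for none of the other 7. Such a transcript is listed for 41.0% of coding genes tested, of which 17.5% rose and 7.01% fell, against 15.9% and 11.7% of the genes without one. Of the 2 SOX genes with one, neither passed in edgeR, also at an unadjusted p of 0.05, or in DESeq2, and without siUPF1 replicate 1 SOX5 did. The longest 3′ UTR was 7338 nt in SOX11, 3352 nt in SOX12, 2660 nt in SOX4, 1867 nt in SOX5, 1609 nt in SOX13, 1597 nt in SOX21, 1593 nt in SOX8, 735 nt in SOX3 and 200 nt in SOX15, beside a median of 1230 nt over coding genes tested. The 3 risers ranged from the shortest of these to near that of SOX13, and only SOX11 had a longer one than the 2 fallers.

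Of 10 other SOX family genes looked for, 6 were in the table and tested, of which 1 rose (SOX14, above) and 2 fell. SOX9, a SOXE gene of cartilage, gonad and neural crest, had 256 and 376 counts in siUPF1 libraries, against 320 and 362 in controls, and changed by -0.28 (SE 0.11, adjusted p = 0.0325, edgeR). SOX2, which is also among the pluripotent stem cell markers above, changed by -0.20 (SE 0.07, adjusted p = 0.0228, edgeR). Both calls are fragile. Without control a neither passed (1 at an unadjusted p under 0.05), without siUPF1 replicate 1 or without control b SOX9 was lost, and DESeq2 called neither (1 at an unadjusted p under 0.05). Over all genes tested DESeq2 called 3.05% lower, against 9.14% in edgeR's test. With the density trend taken out SOX2 stood at -0.10 and did not pass (adjusted p = 0.149, edgeR). Without siUPF1 replicate 1 SOX9 stood at -0.11. SOX10 at -0.33 (SE 0.20) and SOX7 at 0.30 (SE 0.21) did not pass. SOX10 overlaps POLR2F and SOX7 overlaps PINX1 in the annotation, so their counts are less certain.

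Most lists of genes in which SOX proteins are known to act went both ways. In the pluripotency list given below, 7 fell and 0 rose. Over all genes tested 16.8% rose and 9.14% fell in edgeR's test, against 8.35% and 3.05% in DESeq2. Of 10 tested neural progenitor genes in which SOXB1 factors act, 2 rose and 3 fell, with a median log2 fold change of 0.05, while DESeq2 called 1 in each direction. Among them the eye and forebrain homeobox gene SIX3 rose by 0.86 (SE 0.17) and the homeobox gene HESX1 changed by -0.91 (SE 0.16). SIX3 had 109 and 223 counts in siUPF1 replicates 1 and 2, against 69 and 92 in controls. Of 10 neuronal genes in which SOXC factors act, 2 rose and 3 fell, with a median of -0.11. The neuronal microtubule gene DCX changed by -1.11 (SE 0.10) and the neurofilament gene NEFL rose by 0.58 (SE 0.08). The neuronal risers numbered 1 when siUPF1 replicate 1, control a or control b was left out, with the density trend taken out and in DESeq2.

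Of 9 neural crest and glial genes in which SOXE factors act, 3 rose and 2 fell in edgeR's test, with a median of 0.35. DESeq2 called 1 riser. Of all genes tested, 16.8% rose and 9.14% fell in edgeR's test, against 8.35% and 3.05% in DESeq2. The neurotrophin receptor gene NGFR rose by 0.78 (SE 0.08). The fallers of this list numbered 1 without siUPF1 replicate 1 or control b. Leaving out control a gave 0 fallers in edgeR, or 1 at an unadjusted p of 0.05, and DESeq2 on all libraries called 0. Of 8 cartilage genes in which SOXD and SOXE factors act, 4 rose and 2 fell, with a median of 0.43, and the collagen genes COL2A1 (0.53, SE 0.08) and COL11A1 (0.74, SE 0.08) were among the risers. The cartilage fallers numbered 1 without either siUPF1 replicate or control a, and also in limma-voom, with library size alone, with the filter of 5 CPM and with the density trend taken out. Leaving out control b gave 0 in edgeR, also at an unadjusted p of 0.05, and DESeq2 on all libraries called 0.

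Of 6 POU and PAX partner factors tested, 1 rose and 3 fell, with a median of -0.21. POU3F1, a POU factor of neural precursors, changed by -0.65 (SE 0.09). PAX3, a neural crest and muscle factor, rose by 1.12 (SE 0.30). It had 30 and 56 counts in siUPF1 libraries, against 14 and 21 in controls. PAX3 is also on the neural crest list above, PAX6 on the neural progenitor list and POU5F1 on the pluripotency list. The counts of these lists are therefore not fully separate. The riser was lost without siUPF1 replicate 2 (0 at an unadjusted p under 0.05), without control a and in DESeq2 (1 each) and with the filter of 5 CPM, and 1 factor fell without control a. Of 12 pluripotency genes in which SOX proteins act with POU5F1, 7 fell and 0 rose, with a median of -0.20. In edgeR and DESeq2, 0 rose at an unadjusted p under 0.05. POU5F1, NANOG, TDGF1, ZFP42, DPPA4, LIN28A and PRDM14 of this list are also among the pluripotent stem cell markers above. The counts of fallers in these lists are therefore not fully separate results. The fallers LEFTY1 (-0.84, SE 0.09), LEFTY2 (-0.70, SE 0.09) and UTF1 (-0.72, SE 0.15) of this list are not among those markers. The fallers of this list numbered 4 in DESeq2, 3 without siUPF1 replicate 2 and 2 without control a. Over all genes tested 16.8% rose and 9.14% fell in edgeR's test, against 8.35% and 3.05% in DESeq2.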

How the data were processed

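For each gene the deposited table lists its RefSeq transcripts with RPKM and count columns for 4 libraries, per the file headers. The counts are the authors' raw whole numbers, and the deposited RPKM are the authors' length- and depth-scaled values. STAR, DESeq2 and hg19 are named in the submitters' processing notes, without versions or roles. Strand use, repeated reads and multimapping reads are matters not given in the sources used here.

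All control columns carry 1 name, so control counts belong to the group without a replicate number, and the 2 control RPKM columns were not used. The siUPF1 RPKM served only to derive transcript lengths. The RPKM printed are TMM-scaled CPM over that length, for all 4 libraries. Replicates were not copies of each other: chi-square per degree of freedom was 2.88 between the siUPF1 libraries and 1.71 between the controls.

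The test was edgeR 4.0.16 in R 4.3.3 (glmQLFit, glmQLFTest, two-sided) with TMM, filterByExpr and Benjamini-Hochberg adjustment at 0.05 over 15557 genes, tested on simulated data. The SE is the log2 fold change over the square root of F. The fit gave all genes the spread of the fitted trend (common biological coefficient of variation 4.47%), so an SE does not follow the replicates of its own gene. Intervals are at 95% from the fit. Depth was 8887239 to 11200973 counts per library, which makes counting error small for SOX4 and large for SOX5. Alternatives were DESeq2 1.42.0, limma-voom (limma 3.58.1), RLE factors, no scaling beyond library size, no filter or one of 5 CPM in 2 libraries, a threshold of 0.1, leaving out each library, and a loess fit (span 0.3) that takes out the trend on reads per base. For the lists, UPF1 and single genes outside the 9 these were added after the data were seen. Members and lists were chosen with earlier results of these data known. Named genes are all members, UPF1, other SOX genes and, per list, up to 3 with the smallest p. Neighbouring genes, ACTB, GAPDH and ACAN were named after their values were seen. Transcript features came from GENCODE 29, matched by RefSeq accession for 96.0% of genes.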

Additional observations from a re-analysis of the deposited data

How the results depend on the processing

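Of 108 results of the 9 SOX genes under the alternatives, 102 kept their direction and their side of the threshold. The 108 include the threshold of 0.1, which reuses the main fit, so its direction could not change. SOX3, SOX15, SOX21 and SOX12 passed under all alternatives. The fall of SOX4 did not pass without control a, SOX11 passed once the trend on read density was taken out, and SOX5 passed without siUPF1 replicate 1. The sign turned for genes that were not called: SOX5 stood at -0.17 without siUPF1 replicate 2, against 0.68 without replicate 1; SOX8 lay between -0.071 and 0.12 as libraries were left out, and at -0.046 once the density trend was taken out. Leaving out each library gave 1 to 2 SOX members that fell and 3 to 4 that rose. Of the other SOX genes, 0 to 2 fell when a library was left out, 1 fell without the density trend, and 0 fell in DESeq2. The cause was not tested. Calls were fewer over all genes tested in DESeq2, where 8.35% rose and 3.05% fell, against 16.8% and 9.14% in edgeR's test. Of all genes tested, 9.19% rose and 3.51% fell without control a, against 17.6% and 9.7% without siUPF1 replicate 1. No paired analysis was possible because both control columns carry the same name and so no replicate number. With 2 libraries per group, changes as small as those of SOX11 and SOX13 could not be told from no change, and SOX5 rests on 43 to 87 counts.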
